A study of Mus musculus with 6 samples.

Results

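The genes examined here were the IL-6 family cytokines Il6, Osm, Lif and Il11, the receptor chains Il6ra, Il11ra1, Osmr and Lifr, the shared receptor Il6st (gp130) and the feedback inhibitor Socs3. They were found by gene symbol in the GENCODE M21 annotation of the mouse build GRCm38, and all 10 had a row among the 47729 gene IDs of the deposited table. The tissue was left ventricular myocardium taken 9 days after TAC, in which a narrowing is made in the aortic arch (transverse aortic constriction) so that the left ventricle works against a raised pressure. The group labelled Treg had 3 libraries; the series title describes a systemic transfer of regulatory T cells that were induced in culture and deprived of CD28. The control group also had 3 libraries, and both groups had undergone TAC. The labels give no strain, sex or age, no cell dose or time of transfer, and not what the control mice received, so effects of the cells and of the act of transfer cannot be told apart.

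Nearly all cytokines of this family signal through gp130, which they engage together with a further receptor chain. IL-6 and IL-11 bind IL6RA and IL11RA1 before they recruit gp130, whereas LIF and cardiotrophin 1 pair gp130 with LIFR, and oncostatin M pairs it with OSMR. The bound receptors activate JAK kinases and STAT3, and STAT3 induces Socs3, whose product binds gp130 and limits the signal. In the heart this pathway is known for cardiomyocyte growth and survival under load, for fibroblast activation by IL-11, and for cardiomyocyte remodelling by oncostatin M.

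Library totals lay between 28939759 and 29981410 estimated counts, so depth differed little between samples. Ventricular muscle transcripts were abundant in every library: in counts-per-million (CPM), the 7 cardiomyocyte markers summed to 37200 to 51300 CPM in the Treg libraries and 31400 to 46000 CPM in the control libraries. The atrial marker Myl7 was at 1 and 6 counts in Treg replicates 1 and 2, at 1202 counts in Treg replicate 3, and at 1 to 3 counts in the controls. Control replicate 3 stood apart from the other libraries: it held the highest value of 33.3% and the lowest value of 31.9% of the 17365 genes tested. Fold changes of the 10 members are therefore given both with all 6 libraries and without control replicate 3. Since the labels leave it unsaid whether every library is a separate mouse, the spread behind each p-value is that of libraries and may be technical.

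None of the 10 genes passed the threshold between Treg and control hearts (edgeR's quasi-likelihood test, Benjamini-Hochberg adjusted p under 0.05), and neither did any other gene: 0.00% of the 17365 genes tested were called. Before adjustment, 2873 genes (16.5% of those tested) had a p under 0.05, and so did 3 of the 10 members (Lifr, Lif and Il6). DESeq2 called 650 genes, 3.90% of those it adjusted, and among the members it called Lifr. Without control replicate 3, edgeR called 230 genes (1.30%), and without the third library of each group 119 (0.684%), in both cases 0 of the members tested. With limma-voom, 0 genes were called and 2816 had an unadjusted p under 0.05. All 10 members passed the filter on low counts, and 7 of the 10 had a fold change below 0, against 52.0% of all genes tested. The median log2 fold change was −0.87 over the members and −0.02 over all genes tested; without control replicate 3 these medians were −0.14 and 0.00.

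The 2 members whose groups did not overlap were the receptor Lifr and its ligand Lif, and they lay in opposite directions. Lifr had every Treg library above every control library, as did 13.7% of all genes tested, and Lif had every Treg library below every control library, as did 11.7%. Without control replicate 3 the same genes, Lifr and Lif, did not overlap, where 19.5% of all genes lay above and 17.5% below. Without Treg replicate 3, Lifr lay above (18.2% of all genes did) and Il6, Lif and Socs3 below (16.4%), and the same 4 members stood out without the third library of each group (25.2% above and 23.3% below). Without control replicate 1, 7 members did not overlap, Lifr and Il6st above (21.5%) and Il6, Osm, Lif, Osmr and Socs3 below (21.8%). Without Treg replicate 1, Lifr and Il6st lay above (16.2%) and Lif below (14.6%), without Treg replicate 2, Lifr above (17.8%) and Lif below (15.8%), and without control replicate 2, Lifr above (18.9%) and Lif and Il11 below (16.7%). The remaining ligands, Osmr and Socs3 had their highest value in control replicate 3, and Il6st was nearly level between the groups. In a bulk sample, fewer cells of a type and less RNA per cell cannot be told apart.

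**Figure D1:**
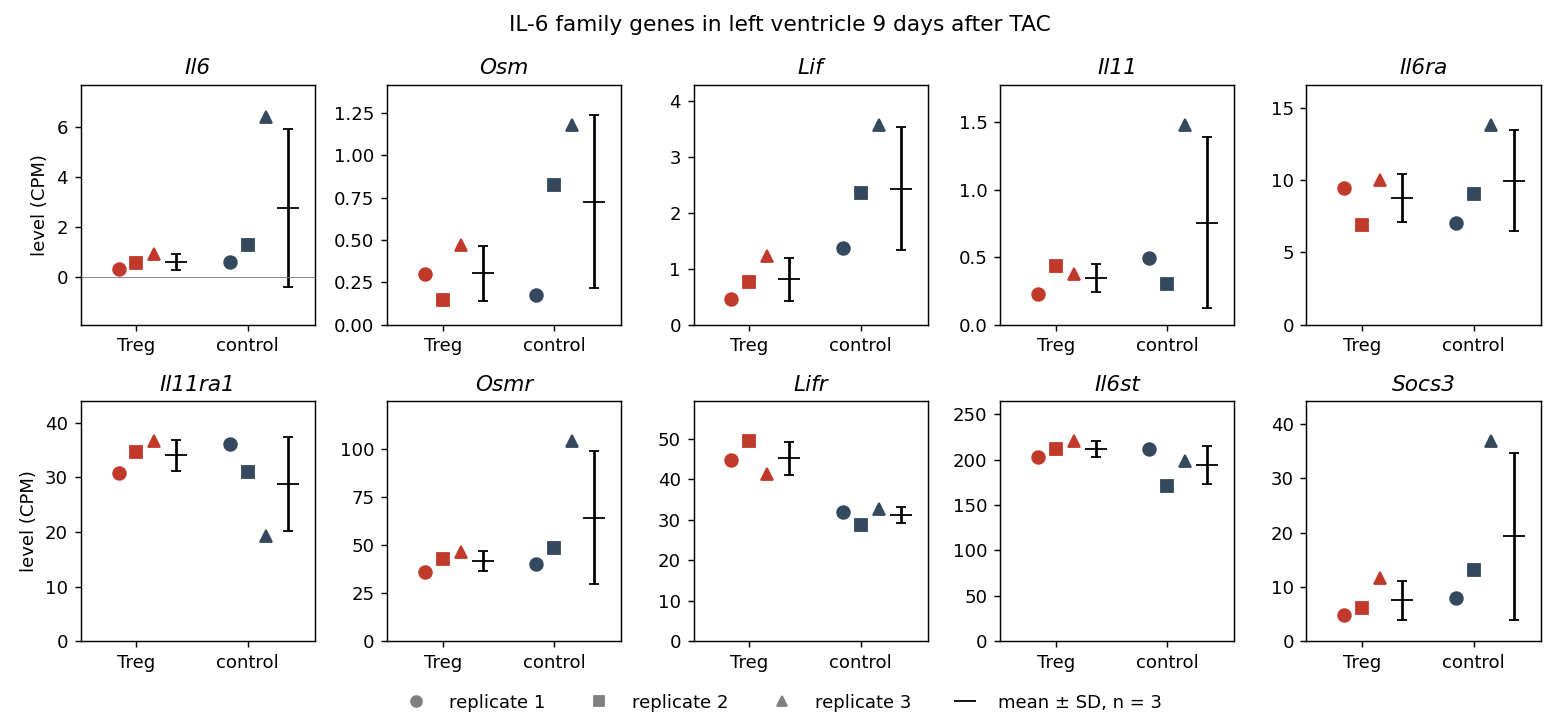
Level of each of the 10 genes in counts-per-million (CPM, vertical axis, linear, one scale per gene) in the 3 Treg libraries (left, red) and the 3 control libraries (right, dark). Symbols mark the replicate number and bars the mean ± SD (n = 3 each); Lifr and Lif are the genes whose groups do not overlap, and control replicate 3 (triangle) lies highest for 7 of the 10.

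Among the ligands, Lif, a cytokine that drives hypertrophic growth of cultured cardiomyocytes, stood at 0.462, 0.757 and 1.22 CPM in the Treg libraries, against 1.37, 2.35 and 3.57 CPM in the control libraries. The gap between the groups was narrow, since Treg replicate 3 and control replicate 1 both held 39 counts and differed only through scaling. The means were 0.815 ± 0.385 CPM in Treg hearts and 2.43 ± 1.10 CPM in control hearts (SD, n = 3 each), a log2 fold change of −1.57 ± 0.46 (SE) with edgeR's adjusted p = 0.215. Without control replicate 3 the log2 fold change was −1.18. DESeq2 gave Lif an adjusted p of 0.0528.

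Il6, the founding cytokine of the family, stood at 0.297, 0.541 and 0.911 CPM in the Treg libraries, against 0.597, 1.26 and 6.40 CPM in the control libraries. Control replicate 3 held 190 counts and the other 5 libraries 9 to 38, and control replicate 1 lay within the range of the Treg libraries. For Il6 the log2 fold change was −2.23 ± 0.88 (SE; edgeR's adjusted p = 0.285) with all libraries and −0.66 ± 0.50 (edgeR's adjusted p = 0.527) without control replicate 3.

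Osm, which encodes oncostatin M, a cytokine made mainly by myeloid cells, had 9, 4 and 15 counts in the Treg libraries and 5, 25 and 35 counts in the control libraries. Control replicate 1 was as low as the Treg libraries, and the groups overlapped. Its log2 fold change was −1.23 ± 0.68 (SE; edgeR's adjusted p = 0.397), or −0.71 without control replicate 3. Il11, a cytokine that acts on fibroblasts, had 7, 12 and 12 counts in the Treg libraries and 14, 9 and 44 counts in the control libraries. Control replicate 3 alone lay clearly above the rest. The log2 fold change of Il11 was −1.12 ± 0.62 (SE; edgeR's adjusted p = 0.399), and −0.18 without that library.

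Among the ligand-specific receptors, Lifr (chromosome 15, 7090614 to 7197489, plus strand, GRCm38) encodes the chain that LIF and cardiotrophin 1 share. It stood at 44.7, 49.3 and 41.3 CPM in the Treg libraries, against 31.8, 28.8 and 32.6 CPM in the control libraries. Both groups were tight, and control replicate 3 lay with the other controls. The means were 45.1 ± 4.04 CPM in Treg hearts and 31.1 ± 2.01 CPM in control hearts (SD, n = 3 each), a log2 fold change of 0.54 ± 0.12 (SE; edgeR's adjusted p = 0.156; DESeq2 adjusted p = 0.0197). Over the 6 omissions of a library it ran from 0.47 to 0.60, and without control replicate 3 it was 0.57 (edgeR's adjusted p = 0.0623). The 7 endothelial markers summed to 706 to 824 CPM in the Treg libraries and 603 to 864 CPM in the control libraries, and the 7 fibroblast markers to 2750 to 5480 CPM and 4160 to 6250 CPM in Treg and control libraries. These sums overlapped between the groups, as did those of the 7 cardiomyocyte markers given above and of the 5 mural markers (554 to 698 CPM in Treg and 496 to 662 CPM in control libraries). Single markers nonetheless lay on the side of Lifr, with every Treg library above every control for 3 of 7 cardiomyocyte (Actc1, Pln and Myl2), 1 of 7 fibroblast (Dcn), 1 of 7 endothelial (Flt1) and 1 of 5 mural markers (Myh11), against 13.7% of all genes. Their log2 fold changes were 0.30 for Actc1, 0.56 for Pln, 0.59 for Myl2, 0.30 for Dcn and 0.26 for Flt1. Myh11, the smooth muscle myosin gene, had 0.68 (DESeq2 adjusted p = 0.0136). Other markers had a fold change below 0: 2 of 7 cardiomyocyte, 4 of 7 fibroblast, 2 of 7 endothelial and 2 of 5 mural markers. Among them were the fibroblast marker Pdgfra at −0.66, the endothelial marker Pecam1 at −0.35 and the mural marker Cspg4 at −0.48. The list medians were 0.20 for cardiomyocyte, −0.34 for fibroblast, 0.09 for endothelial and 0.22 for mural markers. The 5 mast cell markers summed to 6.31 CPM or more in every Treg library and to 4.48 to 5.47 CPM in the control libraries, with no overlap. Most of each sum was Kit, at 8.67, 4.47 and 6.47 CPM in the Treg libraries and 4.49, 3.97 and 3.80 CPM in the controls, which overlapped. Cpa3, Mcpt4, Tpsb2 and Cma1 averaged at most 0.645 CPM in either group, with every Treg library above every control. The part of these cell types in the Lifr values was not tested.

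Osmr, the oncostatin M receptor chain, stood at 36.2, 42.7 and 46.5 CPM in the Treg libraries, against 40.4, 48.6 and 104 CPM in the control libraries. Apart from control replicate 3 the groups interleaved. For Osmr the log2 fold change was −0.62 ± 0.34 (SE; edgeR's adjusted p = 0.395) with all libraries and −0.09 ± 0.14 without control replicate 3. Osmr and Lifr lie on the same chromosome (Osmr at 6813577 to 6874969 on the minus strand) and differed in direction.

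Il6ra, the IL-6 receptor chain, had 286, 191 and 320 counts in the Treg libraries and 200, 272 and 410 counts in the control libraries. The groups overlapped, and the log2 fold change of −0.18 ± 0.28 (SE; edgeR's adjusted p = 0.759) became 0.13 without control replicate 3. Il11ra1, the IL-11 receptor chain, stood at 30.9, 34.6 and 36.6 CPM in the Treg libraries and 36.2, 31.0 and 19.3 CPM in the control libraries. It was the member with its lowest value in control replicate 3, where Il11 was highest. Its log2 fold change was 0.24 ± 0.23 (SE; edgeR's adjusted p = 0.596), and 0.02 without that library.

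Limits of counting touch these receptors. Il11ra1 has near-identical copies in the mouse genome annotated as Il11ra2 and Gm13305, and Gm13305 held 48 to 87 counts and the 3 Il11ra2 IDs 25 to 82 counts in every library, against 574 to 1167 for Il11ra1. The sources used here do not give how reads matching several copies were counted, so the Il11ra1 values are uncertain. Exons of Il6ra share 242 bases with the antisense gene Gm42809, which held 1 to 7 counts, and those of Il11ra1 share 8 bases with Ccl27a on the opposite strand, which held 1 to 12 counts.

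Il6st, the gp130 chain used by nearly all of the family, stood at 203, 212 and 220 CPM in the Treg libraries and 212, 171 and 199 CPM in the control libraries. The means were 212 ± 8.31 CPM in Treg hearts and 194 ± 21.1 CPM in control hearts (SD, n = 3 each). The log2 fold change was 0.13 ± 0.14 (SE; edgeR's adjusted p = 0.645), and 0.15 without control replicate 3. Il6st varied least of the members, with 0.36 log2 units between its highest and lowest library, against 3.11 for Il6 and 2.81 for Socs3.

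Socs3, the STAT3-induced inhibitor of gp130 signalling, stood at 4.81, 6.20 and 11.6 CPM in the Treg libraries, against 7.90, 13.2 and 36.8 CPM in the control libraries. Control replicate 3 was highest, and Treg replicate 3 lay between control replicates 1 and 2. For Socs3 the log2 fold change was −1.35 ± 0.58 (SE; edgeR's adjusted p = 0.304), and −0.48 ± 0.43 without control replicate 3. Treg replicate 3, the library with atrial transcripts, was the highest Treg library for 8 of the 10 members (all but Il11 and Lifr). The share of all genes for which it was the highest Treg library was not computed. The part of atrial tissue in these values was not tested.

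**Figure D2:**
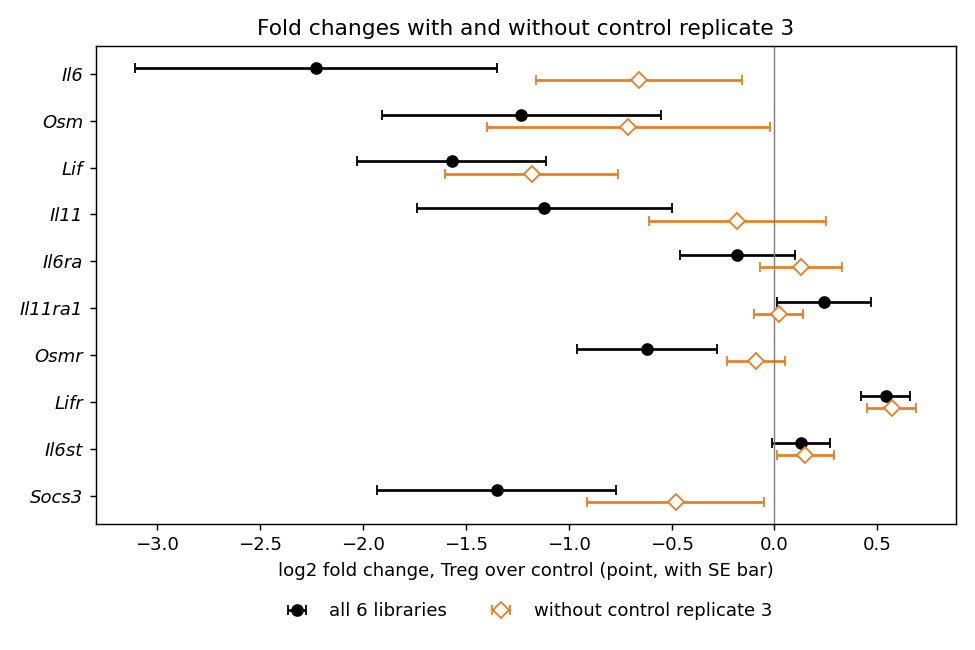
Log2 fold change of Treg over control (horizontal axis, points with SE bars, edgeR) for each of the 10 genes with all 6 libraries (filled) and without control replicate 3 (open). Lifr stays at 0.54 and 0.57 and Lif at −1.57 and −1.18, whereas Il6 moves to −0.66, Osmr to −0.09 and Il11 to −0.18.

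Set per length of transcript, the gp130 chain was the highest member and the ligands the lowest by mean in both groups. In FPKM (CPM per kilobase of annotated exon), Il6st averaged 19.1 ± 0.751 in Treg hearts and 17.5 ± 1.89 in control hearts (SD, n = 3 each), above every other member in every library. In Treg hearts Il11ra1 followed at 7.62 FPKM and then Lifr at 4.19, Osmr at 3.45, Socs3 at 2.61 and Il6ra at 1.02. The Treg ranges of Lifr and Osmr overlapped, as did those of Osmr and Socs3. In control hearts Socs3 came second at 6.67 ± 5.31 FPKM and overlapped Il11ra1 at 6.45 ± 1.93, with Osmr at 5.30 and Lifr at 2.88. The 4 ligands were the lowest members in Treg hearts, between 0.134 FPKM for Osm and 0.240 for Il6, and their ranges overlapped each other. In control hearts the ligands averaged 0.320 to 1.13 FPKM, and the range of Il6 overlapped that of Il6ra. The exon lengths join all annotated isoforms, so a gene with long rare exons is given too low a level.

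The pattern over the libraries split the members into those that followed control replicate 3 and those that did not. Il6 and Socs3 were each other's nearest member, with a root-mean-square difference of 0.219 between their centred log2(CPM + 0.5) profiles over 6 libraries, and Osmr and Il11 were nearest to each other at 0.179. Outside control replicate 3, Il11 stood at only 0.231 to 0.491 CPM, so the added 0.5 CPM narrows its profile and bears on that likeness. In control replicate 3 the level was 6.90 times the mean of the other 2 controls for Il6, 3.75 times for Il11, 3.48 times for Socs3 and 2.33 times for Osmr, but 1.08 times for Lifr and 1.04 times for Il6st. In that library 6 of the 8 neutrophil markers were highest, their sum being 8.73 to 19.2 CPM in the Treg libraries and 7.26 to 41.4 CPM in the controls, and the defining marker Ly6g was at 0 counts in the controls. Of the 5 monocyte markers 4 were highest there (sums of 95.7 to 143 CPM in Treg and 115 to 327 CPM in control libraries). Vcan made up 256 of the 327 CPM, and the fifth marker, the chemokine receptor gene Ccr2, was lowest there, at 4.17 CPM, against 6.92 to 16.5 CPM in the Treg libraries and 7.44 and 15.2 CPM in the other controls. The 8 macrophage markers had 1 highest there, with sums of 397 to 596 CPM in Treg and 402 to 988 CPM in control libraries, and the macrophage receptor gene Cx3cr1 was at 1 count. The part of these cells in the cytokine values was not tested.

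**Figure D3:**
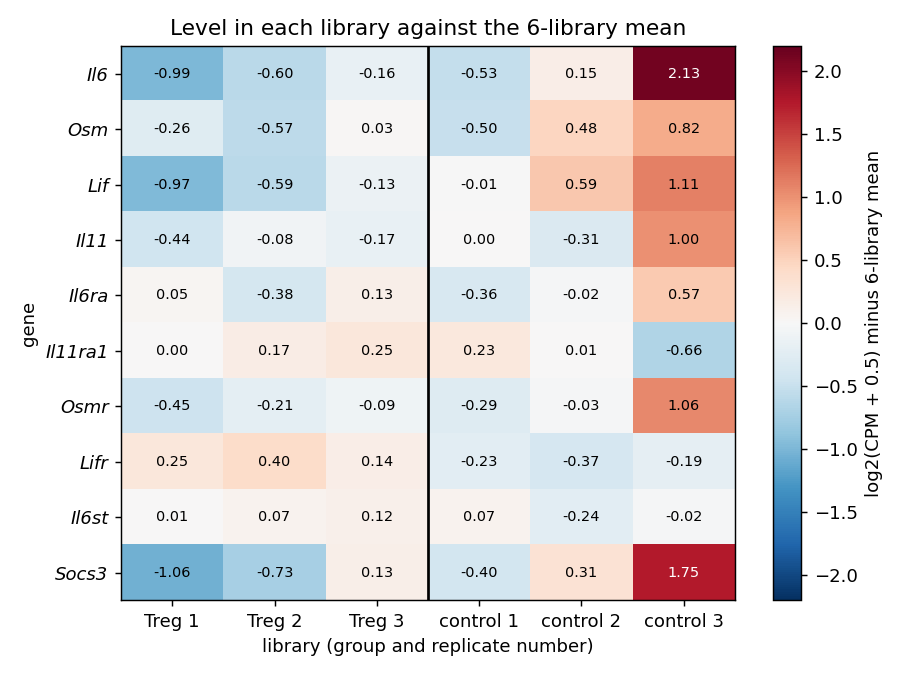
Heat map of the level of each gene (rows) in each library (columns, Treg left of control), as log2(CPM + 0.5) minus the gene's own 6-library mean, with the value printed in each cell. Control replicate 3 is high for Il6 (2.13), Socs3 (1.75), Lif (1.11) and Osmr (1.06) and low for Il11ra1 (−0.66), while Lifr is above 0 in all 3 Treg libraries and below 0 in all 3 controls.

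Genes with a profile most like that of a member over the 6 libraries were sought among 12628 named genes averaging 1 CPM or more. For Il6 they were Sphk1, a kinase that makes sphingosine 1-phosphate, and the serpins Serpina3n and Serpina3m, at root-mean-square differences of 0.185, 0.185 and 0.193 log2 units. Serpina3n, an acute-phase protease inhibitor, stood at 42.7, 72.8 and 74.1 CPM in the Treg libraries and at 77.9, 105 and 490 CPM in the control libraries. For Socs3 the nearest was Ereg, which encodes the growth factor epiregulin, at 0.085, followed by Sphk1 and Il6. Ereg stood at 1.12, 1.44 and 2.95 CPM in the Treg libraries and at 2.32, 3.38 and 10.3 CPM in the control libraries. For Osmr they were Gnl3, Spidr and Dnah17 at 0.067 to 0.076, and for Il6st Nr1h2, Tmem88b and Sox13 at 0.027 to 0.036. These are descriptions of 6 profiles, chosen as the closest of many.

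Promoter windows from RefSeq on GRCm38.p6, from 250 bases before to 50 bases after the annotated start, were found for 9 of the 10 members in 12 windows, and for Osm none was used. They are shown for 4 genes that were high in control replicate 3, because 3 of them hold an AP-1 motif and the fourth, Socs3, holds the STAT motif through which STAT3 is known to act on its target genes. Capitals mark TGANTCA, searched on both strands, in Il6, Lif and Osmr, and TTCNNNGAA in Socs3; the motifs do not overlap in these windows. Each sequence reads 5′ to 3′ on the strand of the gene. Starts differ between annotations: the Socs3 and Osmr windows lie inside the GENCODE genes, which reach 117970047 and 6874969 on the minus strand.
Il6, chr5:30012864-30013163, plus strand: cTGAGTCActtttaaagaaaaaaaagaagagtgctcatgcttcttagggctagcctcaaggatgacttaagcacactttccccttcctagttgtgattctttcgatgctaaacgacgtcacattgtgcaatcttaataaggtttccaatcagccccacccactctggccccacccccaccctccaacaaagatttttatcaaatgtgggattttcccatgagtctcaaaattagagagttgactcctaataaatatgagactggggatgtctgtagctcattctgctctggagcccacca
Lif, chr11:4257318-4257617, plus strand: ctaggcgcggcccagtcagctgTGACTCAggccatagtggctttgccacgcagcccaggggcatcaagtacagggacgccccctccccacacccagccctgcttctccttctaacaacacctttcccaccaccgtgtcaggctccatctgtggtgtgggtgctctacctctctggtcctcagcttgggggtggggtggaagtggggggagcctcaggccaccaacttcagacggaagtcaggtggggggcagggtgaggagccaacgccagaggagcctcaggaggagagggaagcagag
Osmr, chr15:6874264-6874563, minus strand: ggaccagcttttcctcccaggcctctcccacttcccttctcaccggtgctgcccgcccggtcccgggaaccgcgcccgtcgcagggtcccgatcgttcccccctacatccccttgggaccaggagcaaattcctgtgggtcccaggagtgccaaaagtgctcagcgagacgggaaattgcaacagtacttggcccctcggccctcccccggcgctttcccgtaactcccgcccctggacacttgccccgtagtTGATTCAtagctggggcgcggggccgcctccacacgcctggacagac
Socs3, chr11:117969317-117969616, minus strand: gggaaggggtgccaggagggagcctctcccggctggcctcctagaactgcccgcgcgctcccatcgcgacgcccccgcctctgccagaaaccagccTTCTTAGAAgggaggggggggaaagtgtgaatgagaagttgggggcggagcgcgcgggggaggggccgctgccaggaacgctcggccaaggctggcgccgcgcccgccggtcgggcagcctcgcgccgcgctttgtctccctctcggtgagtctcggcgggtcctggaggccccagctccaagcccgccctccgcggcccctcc

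The AP-1 motif TGANTCA was present in windows of 4 members (Il6, Lif, Osmr and, in one of its 2 windows, Il11) and in 7.81% of all 32851 windows. The STAT motif TTCNNNGAA was present in the window of Socs3 only among the members, at −154 to −146 from the start, and in 8.30% of all windows. TTNNGNAA, a C/EBP-like motif, was found in Il6 and Il6ra and in 40.7% of all windows. The exact string TATAAA, a strict form of the TATA box, was found in 0 members and in 13.6% of all windows. Both strands were searched for each. The near form TATATAA, which that string does not match, is in the Il11 window that holds the AP-1 motif. Neither the AP-1 nor the STAT motif was in the windows of Lifr, which was not high in control replicate 3, or of Il6ra, which was highest there. A match describes the letters of a window and does not show binding.

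The other ligands and receptors of the family held further genes whose groups did not overlap. Ctf1 (chromosome 7, 127712736 to 127718192, plus strand), which encodes cardiotrophin 1, a LIFR ligand that acts on cardiomyocytes, stood at 5.11, 4.94 and 4.40 CPM in the Treg libraries, against 2.77, 1.65 and 0.875 CPM in the control libraries. All 3 Treg libraries lay above all 3 controls, and the lowest value was in control replicate 3. The log2 fold change of Ctf1 was 1.45 ± 0.38 (SE; edgeR's adjusted p = 0.185; DESeq2 adjusted p = 0.018), and 1.12 without control replicate 3 (edgeR's adjusted p = 0.0749). Ctf1 therefore lay on the same side as Lifr, and Lif on the other.

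Clcf1 encodes a cytokine that signals through CNTFR, LIFR and gp130. Clcf1 stood at 2.74, 2.88 and 3.23 CPM in the Treg libraries, against 4.53, 4.90 and 19.9 CPM in the control libraries. Every Treg library lay below every control, and the size of the difference rested on control replicate 3. The log2 fold change of Clcf1 was −1.72 ± 0.57 (SE; edgeR's adjusted p = 0.241; DESeq2 adjusted p = 0.0371), and −0.67 without it.

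Il27ra, the IL-27 receptor chain that pairs with gp130, stood at 4.42, 4.07 and 4.74 CPM in the Treg libraries, against 3.05, 2.98 and 1.41 CPM in the control libraries, a log2 fold change of 0.83 ± 0.31 (SE; edgeR's adjusted p = 0.265), and 0.55 without control replicate 3. Cntf and Cntfr were chosen after their values were seen. Cntf, a ciliary neurotrophic factor gene, had 9 counts in each Treg library and 11, 13 and 55 counts in the control libraries, with every Treg library below every control and a log2 fold change of −1.55 (edgeR's adjusted p = 0.299), or −0.44 without control replicate 3. Its receptor gene Cntfr had 46, 45 and 80 counts in the Treg libraries and 11, 23 and 60 counts in the controls. Cntfr had a log2 fold change of 0.83 ± 0.55 (SE; edgeR's adjusted p = 0.466), and of 1.70 without control replicate 3. Of the 14 IDs on this list 10 were tested and 0 were called by edgeR. Of the 10, 3 had every Treg library above every control and 3 below. Over all genes tested these shares were 13.7% and 11.7%. The third ID above was 1 of the 3 near-identical Il11ra2 copies.

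**Figure D4:**
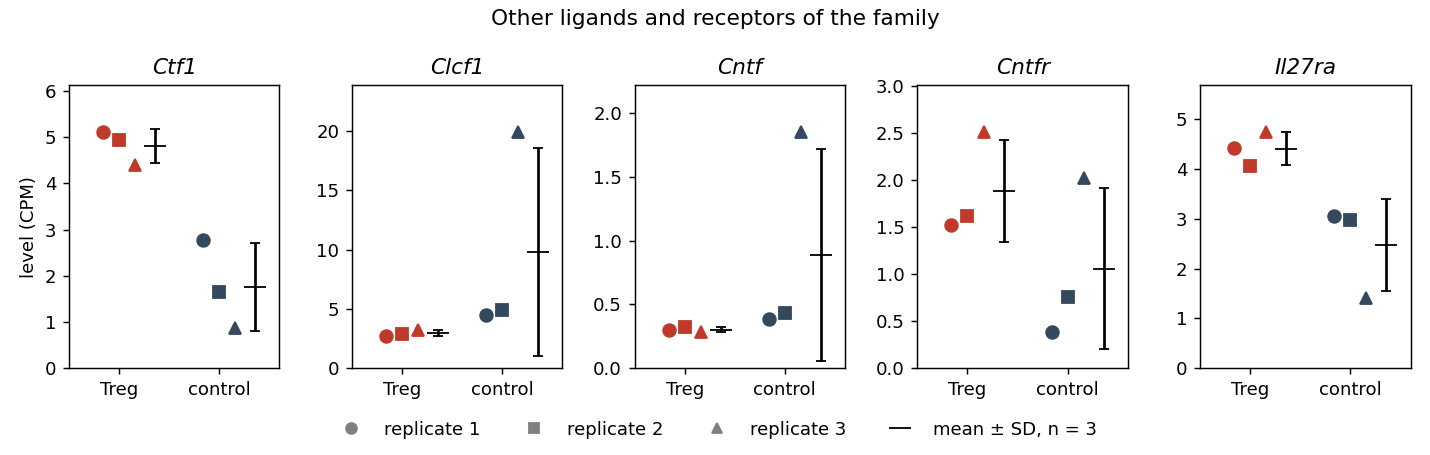
Level in counts-per-million (CPM, vertical axis, linear, one scale per gene) of 5 further ligand and receptor genes of the family in Treg (left, red) and control (right, dark) libraries, with symbols for the replicate number and bars for the mean ± SD (n = 3 each). Ctf1 and Il27ra lie higher in every Treg library, and Clcf1 and Cntf lower, than in any control.

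Of 14 JAK-STAT relay genes, the kinases, transducers and adaptors downstream of gp130, 0 were called, 8 had a fold change above 0 and the median was 0.10. Grb2, an adaptor that links receptors to Ras, had a log2 fold change of 0.34, Stat5b 0.37 and the kinase gene Tyk2 0.36 (0.33, 0.26 and 0.21 without control replicate 3), with edgeR's adjusted p between 0.248 and 0.373. In these 3 every Treg library lay above every control, as in 5 of the 14 on the list, while 1 of the 14 lay below. Over all genes tested 13.7% lay above and 11.7% below. Stat3, named here for its place in the pathway and not by the naming rule, stood at 164, 194 and 190 CPM in the Treg libraries and at 206, 191 and 273 CPM in the control libraries (log2 fold change −0.29 ± 0.17, SE; edgeR's adjusted p = 0.425), and −0.12 without control replicate 3.

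Of 14 genes listed as further inhibitors of the pathway 0 were called, and the median log2 fold change was −0.11. The list includes Adam10 (−0.04) and Adam17 (0.01), proteases that shed receptors and are not inhibitors in a strict sense. Ptpn2, a phosphatase of JAK kinases and STATs, stood at 10.9, 12.5 and 11.5 CPM in the Treg libraries and at 13.9, 16.3 and 18.9 CPM in the control libraries (−0.49 ± 0.16, SE; edgeR's adjusted p = 0.233). Cish, a STAT5-induced SOCS family member, had a log2 fold change of −0.31 (edgeR's adjusted p = 0.263), Ptpn1 had −0.34 (0.359) and Socs7 had 0.25 (0.378). Without control replicate 3 the log2 fold change was −0.38 for Ptpn2, −0.33 for Cish, −0.21 for Ptpn1 and 0.20 for Socs7. Ptpn2 and Cish, 2 of the 14, had every Treg library below every control, as did 11.7% of all genes tested.

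Target genes of STAT3 and of the acute-phase response lay lower on average in Treg hearts, with 0 of 30 tested called by edgeR and 1 by DESeq2 (Hif1a). Of the 30 fold changes 27 were below 0, against 52.0% of all genes tested. Their median log2 fold change was −0.60, against −0.02 over all genes, and −0.14 without control replicate 3, with 20 of 30 below 0. Control replicate 3 held the highest value of 22 of the 30. Hif1a, the hypoxia-inducible transcription factor, stood at 95.7, 90.7 and 101 CPM in the Treg libraries and at 132, 138 and 128 CPM in the control libraries (−0.47 ± 0.12, SE; edgeR's adjusted p = 0.17; DESeq2 adjusted p = 0.00854), and −0.49 without control replicate 3. Tgm2, a transglutaminase that crosslinks proteins, stood at 364, 416 and 421 CPM in the Treg libraries and at 671, 667 and 476 CPM in the control libraries (−0.59 ± 0.18, SE; edgeR's adjusted p = 0.218), and −0.74 without control replicate 3. Pim1, a STAT3-induced kinase, had a log2 fold change of −0.72 (edgeR's adjusted p = 0.248), and −0.40 without control replicate 3. Cebpb, a transcription factor of the acute-phase response, lay the other way, at 16.2, 14.1 and 17.5 CPM in the Treg libraries and 11.9, 11.6 and 12.4 CPM in the control libraries (0.41 ± 0.14, SE; edgeR's adjusted p = 0.245).

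The genes listed as acting upstream of Il6, Lif or Il11 were cytokines, vasoactive peptides, the receptor gene Il1r1, the enzyme gene Ptgs2 and NF-kB components. The last include the NF-kB inhibitor gene Nfkbia. Of these 13 genes, 0 were called by edgeR and 1 by DESeq2. DESeq2 called 3.90% of all genes it adjusted. A fold change below 0 was found for 10 of the 13 (median −0.33), against 52.0% of all genes tested (median −0.02). Without control replicate 3, 9 of the 13 lay below 0 and the median was −0.21. The gene called by DESeq2 was Tgfb2, a TGF-beta ligand, at 28.5, 28.1 and 40.5 CPM in the Treg libraries, against 63.0, 49.7 and 51.8 CPM in the control libraries. Its log2 fold change was −0.76 ± 0.18 (SE; edgeR's adjusted p = 0.164; DESeq2 adjusted p = 0.0168), and −0.80 without control replicate 3. Tgfb2 and Edn1, 2 of the 13, had every Treg library below every control, as did 11.7% of all genes tested. Edn1, which encodes the vasoconstrictor endothelin 1, had a log2 fold change of −0.46 (edgeR's adjusted p = 0.314). Tnf and Il1a had −0.95 and −1.06 (edgeR's adjusted p = 0.367 and 0.381) at means of at most 1.06 CPM in either group, and −0.35 and −0.94 without control replicate 3. Chosen after their values were seen, Il1b and Ptgs2 lay the other way, at 0.53 and 0.11 (edgeR's adjusted p = 0.659 and 0.954). Without control replicate 3, Il1b had 1.45 and Ptgs2 1.58 (edgeR's adjusted p = 0.143 and 0.294).

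**Figure D5:**
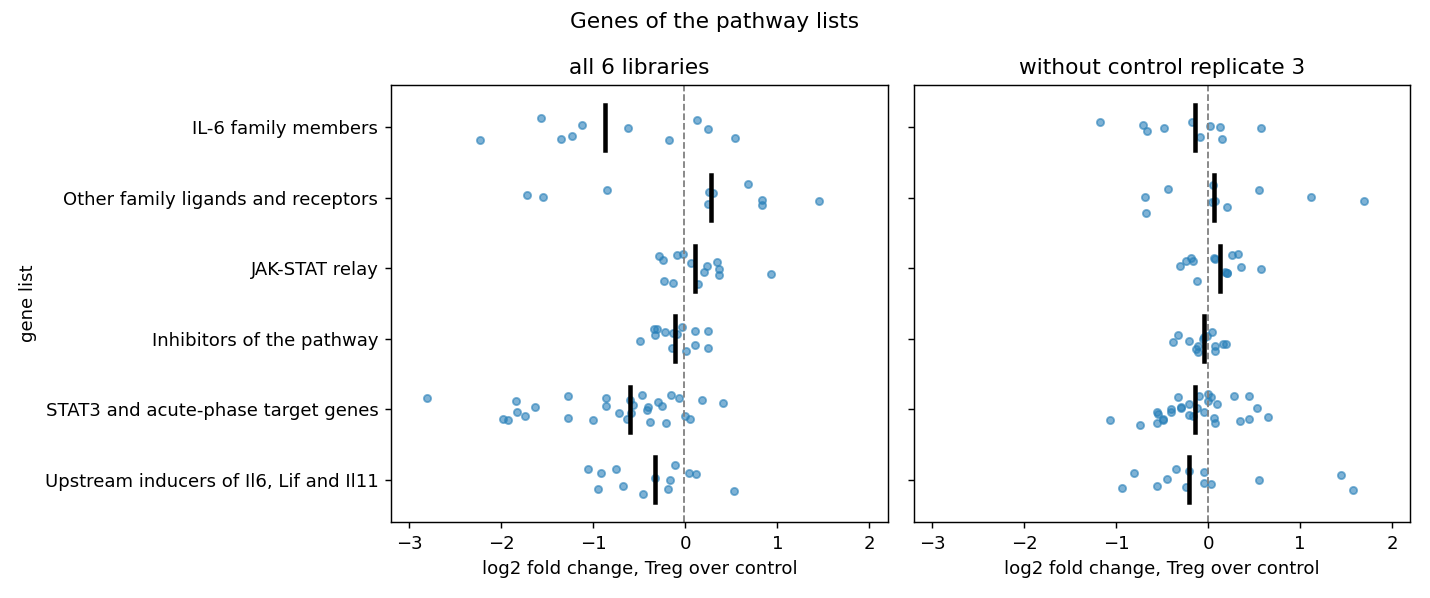
Log2 fold change of Treg over control (horizontal axis) of each tested gene (points, jittered vertically) in 6 gene lists, with all 6 libraries (left) and without control replicate 3 (right); thick bars are list medians and the dashed line is the median of all genes tested. The median of the STAT3 and acute-phase list moves to −0.14 without control replicate 3, against −0.60 with it.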

How the data were processed

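RNA was measured in 6 libraries of left ventricular myocardium, 3 per group. Per the labels' protocols, stranded mRNA libraries were sequenced in pairs. Per the submitters' processing notes, the tools were featureCounts 2.0.6, HISAT2 2.1.0, Cuffdiff 2.2.1 and Trimmomatic 0.39, with the build GRCm38; what each tool did, whether counting used strand, and which annotation it used were not given in the sources used here. Estimated counts per gene, not normalized, were deposited by the authors; between 46.5% and 50.0% of the values above 0 were fractional. They were rounded to whole numbers. Another 6 columns, matching no listed sample, were left out. GENCODE M21 named 47310 of the 47729 IDs.

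Genes were kept by filterByExpr (17365), scaled by TMM and tested two-sided with edgeR 4.0.16 in R 4.3.3 (robust quasi-likelihood, no covariate), with adjustment over all genes tested and a threshold of 0.05; SE was taken as the log2 fold change over root F. CPM uses the TMM-scaled library sizes. The members and gene lists were chosen with earlier results of these data known. Besides the 10 members, the rule named up to 4 genes with the smallest p in each of 5 context lists and the 3 genes most like each of Il6, Il6st, Osmr and Socs3; 2 genes that this rule named are not reported here. DESeq2 1.42.0 and limma 3.58.1 were alternatives, run on the same filtered genes; other scalings and filters, a replicate block and omission of libraries were also tried. The tests were checked on simulated data. No simulated library was made to stand apart as control replicate 3 did, so the check does not cover that feature.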

Additional observations from a re-analysis of the deposited data

How the results depend on the processing

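Over 16 alternatives that give a fold change, 28 of the 30 members and named context genes kept their direction. Il6ra had a log2 fold change of 0.08 with sample quality weights in limma-voom, 0.02 without the third library of each group and −0.36 to 0.13 over the single omissions, and Il11ra1 had −0.05 without the third library of each group; the cause was not tested. The count of genes past the threshold, 0 in edgeR, was 650 with DESeq2, 264 with limma-voom and sample quality weights, 38 without the filter on low counts, 119 without the third library of each group, 82 at an adjusted p under 0.1, and 0 to 230 over the single omissions, the 230 being without control replicate 3. DESeq2 called 1 member, Lifr, and 5 context genes; sample quality weights called 1 context gene, Ctf1, and leaving out the third library of each group called 1, Tgfb2. The other scalings, the filter at 1 CPM, limma-voom without weights and removal of mitochondrially encoded genes called 0 genes. The number of members whose groups did not overlap, a check chosen after seeing the data, was 2 to 7 over the single omissions. The 7 were without control replicate 1, where 21.5% of all genes lay above and 21.8% below. It was 4 without the third library of each group, where 25.2% of all genes lay above and 23.3% below. Osm was not tested without the third library of each group, and Osm and Il11 were not tested at 1 CPM, since they missed those filters.

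The replicate numbers shared by the groups were not used as pairs: deviations from the group means correlated at −0.145, −0.235 and 0.042 for numbers 1, 2 and 3, and no Treg library correlated best with its own number. With the replicate number as a block, 0 genes and 0 members were called, and Lifr and Lif had log2 fold changes of 0.54 and −1.58. The low counts of Osm and Il11 limit what can be detected for these ligands.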

Other observations

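Ratios of counts within a library, chosen after the values were seen and given without a test, set the receptor chains and ligands side by side free of library scaling. Lifr over Osmr was 1.24, 1.15 and 0.887 in the Treg libraries, against 0.786, 0.592 and 0.315 in the control libraries, so every Treg library lay above every control. Ctf1 over Lif, the ligands of the same receptor pair, was 11.1, 6.52 and 3.59 in the Treg libraries, against 2.03, 0.704 and 0.245 in the control libraries, again with no overlap. That separation was fixed in advance, since every Treg library lay above every control for Ctf1 and below every control for Lif. Il6ra over Il6st was 0.0465, 0.0325 and 0.0458 in the Treg libraries and 0.0332, 0.0528 and 0.0693 in the control libraries, with overlap. Socs3 over Il6st was 0.0237, 0.0293 and 0.0529 in the Treg libraries and 0.0373, 0.0774 and 0.185 in the control libraries, and Treg replicate 3 lay above control replicate 1. These 4 ratios were the ones computed, and the share of other gene pairs that separate the groups was not.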
